A study of Astyanax mexicanus with 18 samples.

Results

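Of 27420 genes listed for the liver of Astyanax mexicanus, 5 were chosen by name as fasting stress genes, known from other vertebrates as brakes on growth. They are ddit4 (ENSAMXG00000042715), the sestrin genes sesn1 (ENSAMXG00000014676) and sesn2 (ENSAMXG00000020616), ypel3 (ENSAMXG00000037728) and tp53inp1 (ENSAMXG00000035358). The 2 sestrin rows were the only ones found under the sestrin names searched. The group was proposed because ddit4, ypel3 and tp53inp1 were lower after a meal in these same libraries, so their refeeding values are given as a description, with no test. All 5 passed the filter on low values, with 4 of them at 1 TPM (a transcript count scaled to gene length and library total) or more in all 12 libraries. The exception, sesn2, was under 1 TPM in every starved library and passed only through the refed groups.

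Livers came from 4-month-old fish of 2 populations, the eyed surface form and the Pachón cavefish, a blind cave form of the same species. All fish were fasted for 4 days. The starved groups were dissected after that fast, and the refed groups received a single 10 mg meal and were dissected 3 hours later, so no group of continuously fed fish entered these comparisons. Each of the 4 groups had 3 libraries, and the labels name no allele, transgene or drug for them. The labels do not tie each library to a separate fish, so p-values measure only the spread between these libraries, which may be technical.

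The kinase complex mTORC1 promotes protein synthesis and growth when amino acids and insulin are plentiful, and in mammals several genes induced by fasting or stress hold it back. The ddit4 product (also called REDD1) acts through the TSC complex, which switches off the mTORC1 activator Rheb. Sestrins act on the GATOR complexes that report amino acid supply to mTORC1, and in mammals SESN2 binds leucine. The ypel3 and tp53inp1 genes are p53 targets in mammals, the former linked to growth arrest and the latter to autophagy and cell death.

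Sequencing depth is unknown, because TPM keep none. Per library 10952 to 12123 genes had at least 1 TPM, and libraries of a group correlated at Pearson r = 0.9 to 0.973 across genes, which do not count as replicates. Libraries of different groups correlated at 0.787 to 0.919, so the ranges overlapped. The summed TPM of 15 hepatocyte marker rows was 113000 in replicate 2 of the starved surface fish and 187000 to 247000 in the other libraries. That library also had the highest sum of 8 ovary and egg protein rows, 4210 TPM against 23.6 or less elsewhere, nearly all of it from 1 row of the yolk protein gene vtg3, which the liver expresses in female fish (maximum 4203.25 TPM). None of the other 7 rows, the germ cell genes ddx4, zar1 and gdf9 among them, exceeded 8.08 TPM in any library. Replicate 1 of the refed Pachón cavefish had the highest sum of 13 intestine marker rows, 1650 TPM, but did not stand apart in it, with 1390 TPM in replicate 3 of the starved and 1020 TPM in replicate 3 of the refed surface fish, and cdx1a and cdx1b, transcription factor genes that define intestine, were listed at 0 in all libraries. Of that sum 1620 TPM came from 4 rows of the apolipoprotein gene apoa4a. Other intestine rows were not absent throughout, with fabp2 at 0 to 120.74 TPM and anpepb at 0 to 34.31 TPM over the libraries. Whether some libraries held intestine was not tested. Results were also computed without both replicate 2 of the starved surface fish and replicate 1 of the refed Pachón cavefish, here called the doubtful libraries. The name is only a label. No fault is shown for the Pachón library, which did not stand apart in its marker sum, so values without it are not the cleaner ones. The main effects of leaving them out are given beside the results.

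Of the 3 chosen genes tied above to mTORC1 (ddit4 and the sestrins), ddit4 had the highest TPM in starved fish. It was much lower after the meal in both populations. In starved surface fish ddit4 stood at 455.44, 158.96 and 61.36 TPM in replicates 1 to 3, and in refed surface fish at 4.15, 2.05 and 9.32 TPM. In starved Pachón cavefish it stood at 623.65, 712.69 and 840.09 TPM, and in refed Pachón cavefish at 20.8, 56.74 and 96.95 TPM. Every refed library lay below every starved library of its population, and the lowest starved library exceeded the highest refed library 6.58-fold in surface fish and 6.43-fold in Pachón cavefish. Starved surface fish were spread widely, with a 7.42-fold range, whereas starved Pachón cavefish spanned 1.35-fold.

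The refed mean of ddit4 was 2.3% of the starved mean in surface fish and 8.02% in Pachón cavefish. On the log2(TPM + 1) scale the refed minus starved difference of ddit4 was -4.93 ± 0.71 (SE of the limma fit, 3 libraries a group; 95% interval -6.49 to -3.36) in surface fish. In Pachón cavefish it was -3.86 ± 0.71 (-5.42 to -2.29). These differences were the 6th and the 9th lowest of the 13157 tested genes. The starved mean of ddit4 in Pachón cavefish, 725 ± 109 TPM (SD, n = 3), ranked 208th among all genes.

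The sestrin genes did not share this pattern. In starved surface fish sesn1 stood at 34.63, 41.49 and 18.34 TPM, and in refed surface fish at 13.48, 40.73 and 23.38 TPM. In starved Pachón cavefish sesn1 stood at 25.65, 16.91 and 16.91 TPM, and after the meal at 17.84, 20.48 and 19.88 TPM. Starved and refed libraries overlapped in both populations. The refed minus starved difference of sesn1 was -0.33 ± 0.39 (95% interval -1.18 to 0.52) in surface fish and -0.01 ± 0.39 (-0.85 to 0.84) in Pachón cavefish, and both intervals include 0.

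The sesn2 gene, whose product senses leucine in mammals, was scarce and higher after the meal. It stood at 0.89, 0.67 and 0.68 TPM in starved and 1.04, 1.79 and 2.87 TPM in refed surface fish. In Pachón cavefish sesn2 stood at 0.8, 0.66 and 0.77 TPM when starved and at 2.67, 1.61 and 1.92 TPM when refed. All refed libraries lay above all starved libraries of their population, an order shown by 14.9% of tested genes in surface fish and 35.7% in Pachón cavefish. Since sesn2 passed the filter only through the refed groups, where it was high, nothing is read from this order or from the intervals. The difference was 0.68 ± 0.22 (95% interval 0.19 to 1.18) in surface fish and 0.80 ± 0.22 (0.31 to 1.29) in Pachón cavefish. At these levels the size depends on the pseudocount, and with 0.1 in place of 1 TPM the differences were 1.14 and 1.34.

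**Figure D1:**
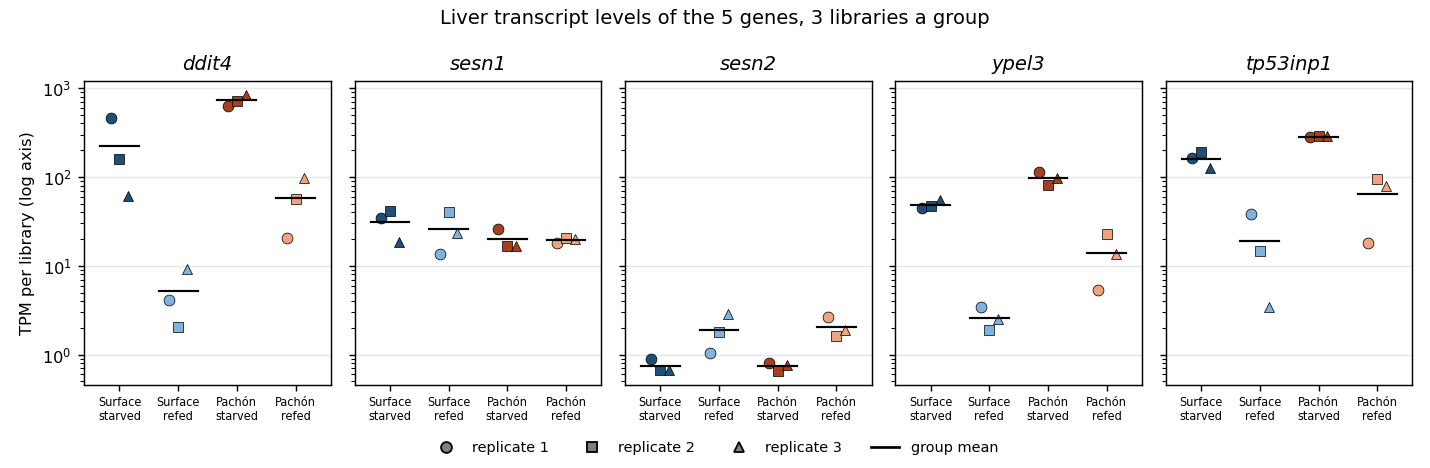
TPM of ddit4, sesn1, sesn2, ypel3 and tp53inp1 in each of the 12 liver libraries (log axis), with symbols for the replicate and a line for the mean of each group of 3. The refed libraries of ddit4, ypel3 and tp53inp1 lie below the starved libraries of the same population, those of sesn1 overlap, and those of sesn2 lie above.

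In surface fish ypel3 had tighter groups than tp53inp1, the other of the 5 genes described above as a p53 target. It stood at 45.3, 46.82 and 54.41 TPM in starved and at 3.45, 1.89 and 2.51 TPM in refed surface fish. In Pachón cavefish ypel3 stood at 114.72, 82.16 and 96.17 TPM when starved and at 5.35, 22.85 and 13.63 TPM when refed. The groups did not overlap, and the lowest starved library exceeded the highest refed library 13.1-fold in surface fish but 3.6-fold in Pachón cavefish. The refed mean of ypel3 was 5.36% of the starved mean in surface fish and 14.3% in Pachón cavefish. The difference was -3.80 ± 0.39 (95% interval -4.66 to -2.94) in surface fish and -2.91 ± 0.39 (-3.77 to -2.05) in Pachón cavefish, the 15th and the 31st lowest of all tested genes.

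The autophagy gene tp53inp1 stood at 162.33, 189.29 and 125.67 TPM in starved and at 38.32, 14.74 and 3.45 TPM in refed surface fish. In Pachón cavefish tp53inp1 stood at 278.94, 287.43 and 289.16 TPM when starved and at 18.22, 95.58 and 78.79 TPM when refed. The starved Pachón libraries were almost level, with a 1.04-fold range, while refed surface fish spanned 11.1-fold and refed Pachón cavefish 5.25-fold. The refed mean of tp53inp1 was 11.8% of the starved mean in surface fish and 22.5% in Pachón cavefish. The difference was -3.49 ± 0.72 (95% interval -5.08 to -1.91) in surface fish and -2.44 ± 0.72 (-4.02 to -0.85) in Pachón cavefish, the 19th and the 59th lowest of all tested genes.

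In each population 3 of the 5 genes had all refed libraries below all starved libraries, an order shown by 17.8% of tested genes in surface fish and 15.3% in Pachón cavefish. Since these genes were proposed for that order, nothing is read from the count. Replicate 1 of the refed Pachón cavefish, the library with the highest intestine marker sum, was the lowest of its group for ddit4, ypel3 and tp53inp1. Without it the Pachón differences were -3.26 for ddit4, -2.39 for ypel3 and -1.70 for tp53inp1. In bulk liver, fewer cells of a type and less RNA per cell cannot be told apart.

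Related genes were available for the YPEL family, small conserved proteins with a zinc-binding Yippee domain. The row ypel5 (ENSAMXG00000032716) fell after the meal from 14.7 ± 5.2 to 0.57 ± 0.229 TPM in surface fish (SD, n = 3; log2 difference -3.28 ± 0.33, limma adjusted p = 0.000442). In Pachón cavefish ypel5 fell from 20.2 ± 2.3 to 1.78 ± 1.19 TPM (-3.02 ± 0.33, limma adjusted p = 0.000177). All refed libraries of ypel5 lay below all starved libraries in both populations. The second row named YPEL5 (ENSAMXG00000041006) fell by 1.30 ± 0.20 in surface fish (limma adjusted p = 0.00206) and by 1.08 ± 0.20 in Pachón cavefish (limma adjusted p = 0.00214). Reads shared between the YPEL rows could have been split between them, so their separate values are uncertain. Rows for DDIT4L, ypel1 and ypel2b stayed under the filter and were not tested.

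The size of the fall was compared between populations as the difference of the refeeding responses, Pachón minus surface. It was 1.07 ± 1.01 for ddit4 (95% interval -1.15 to 3.28) on the log2(TPM + 1) scale. For ypel3 it was 0.90 ± 0.56 (-0.32 to 2.11) and for tp53inp1 1.06 ± 1.02 (-1.18 to 3.30). All 3 estimates pointed to a smaller log2 fall in Pachón cavefish, and all 3 intervals included 0 as well as a difference of more than 2 log2 units. In TPM the fall of the means was larger in Pachón cavefish for all 3 genes. Means there went from 725 to 58.2 TPM for ddit4, 97.7 to 13.9 for ypel3 and 285 to 64.2 for tp53inp1. In surface fish they went from 225 to 5.17, 48.8 to 2.62 and 159 to 18.8 TPM. For sesn1 the estimate was 0.32 ± 0.55 (-0.87 to 1.52) and for sesn2 0.12 ± 0.32 (-0.58 to 0.81). The median of this difference over all tested genes was 0.29, and limma called 0.0684% of them. After median-of-ratios scaling that median was 0.03, and the estimates were 0.74 for ddit4, 0.57 for ypel3 and 0.70 for tp53inp1. These values use the libraries that chose the genes and carry no p. With both doubtful libraries left out the estimates were 1.69 for ddit4, 1.44 for ypel3 and 1.65 for tp53inp1. Single libraries moved them in either direction. The ddit4 estimate was 0.34 without replicate 1 and 1.77 without replicate 3 of the starved surface fish, 0.65 without replicate 2 of the refed surface fish, and 1.66 and 0.58 without replicates 1 and 3 of the refed Pachón cavefish. Without replicates 1 and 2 of the refed Pachón cavefish in turn, ypel3 was at 1.41 and 0.46 and tp53inp1 at 1.79 and 0.62. The tp53inp1 estimate was also 1.80 without replicate 1 and 0.23 without replicate 3 of the refed surface fish.

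**Figure D2:**
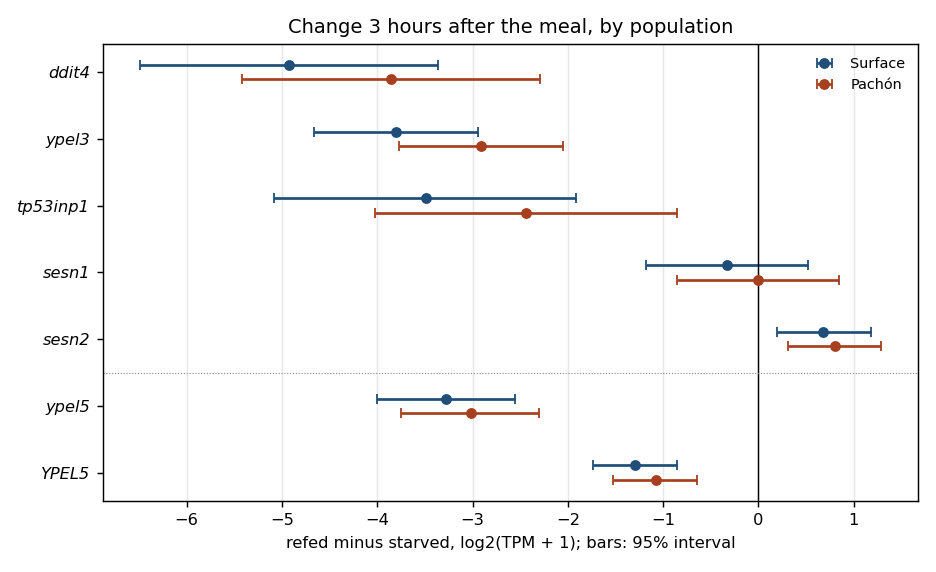
Refed minus starved difference on the log2(TPM + 1) scale in surface fish (blue) and Pachón cavefish (red), with 95% intervals of the limma fit, for the 5 genes and, below the dotted line, both YPEL5 rows. The intervals of the populations overlap for each gene, with ddit4 at -4.93 and -3.86 and sesn2 at 0.68 and 0.80.

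**Figure D3:**
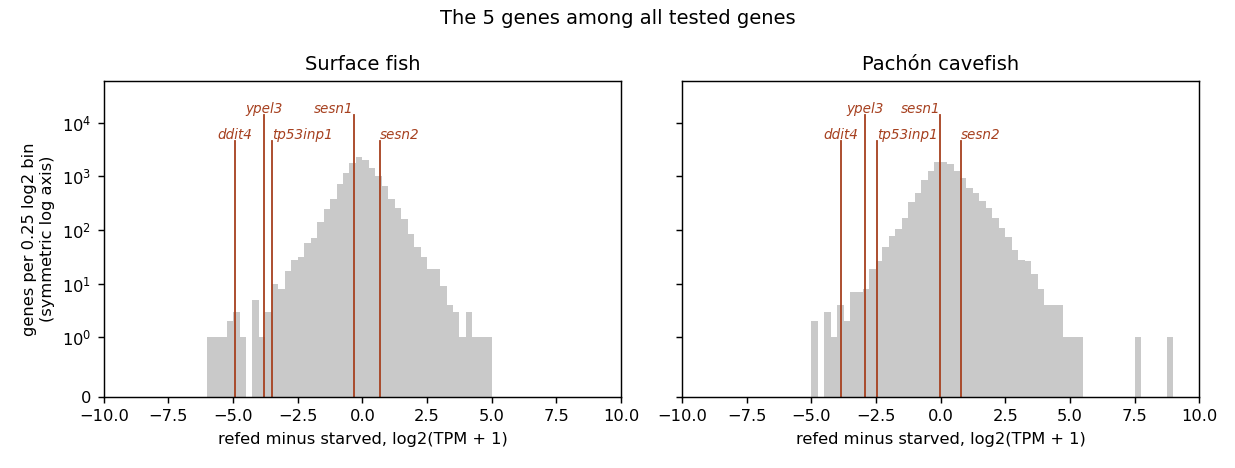
Number of tested genes per 0.25 log2 bin (symmetric log axis) against the refed minus starved difference, log2(TPM + 1), in each population, with lines at the 5 genes. ddit4, ypel3 and tp53inp1 lie in the lower tail, while sesn1 and sesn2 lie in the body of the distribution.

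Whether the populations differed in level, whatever the feeding state, could be tested. The estimate for the mean of both states weights starved and refed libraries alike. It would be uncorrelated with the refed minus starved differences that chose the genes only if starved and refed groups within populations spread equally. For ddit4 they did not, with SDs on the log2(TPM + 1) scale of 1.44 in starved and 0.88 in refed surface fish. In starved and refed Pachón cavefish these SDs were 0.21 and 1.1. The spread behind the limma p also comes from the same 12 libraries. Thus neither the estimate nor the p is wholly free of that choice. Both ddit4 and ypel3 were higher in Pachón cavefish. For ddit4 the mean population difference was 2.66 ± 0.50 on the log2(TPM + 1) scale (limma adjusted p = 0.00323; exact two-sided permutation p = 0.005), and all 3 Pachón libraries exceeded all 3 surface libraries in each feeding state, an order shown by 13.4% of tested genes in starved and 25.3% in refed fish. For ypel3 it was 1.42 ± 0.28 (limma adjusted p = 0.00373; exact two-sided permutation p = 0.005), again with no overlap in either state. The exact test exchanged population labels within feeding states, and 0.005 is the smallest p its 400 arrangements can give. In this comparison limma called 2 of the 5 genes, against a background of 23% (13.1% higher and 9.86% lower in Pachón cavefish). Whether reads of both populations were assigned equally well to these gene rows was not tested.

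The tp53inp1 estimate was similar, 1.39 ± 0.51 (95% interval 0.27 to 2.51), but missed the threshold after adjustment (limma adjusted p = 0.0731; exact two-sided permutation p = 0.04). Its starved groups did not overlap, whereas 2 of 3 refed Pachón libraries exceeded all refed surface libraries. Without replicate 1 of the refed Pachón cavefish it was called (limma adjusted p = 0.0223), as it was without replicate 1 of the refed surface fish (0.0176), without both doubtful libraries (0.0313) and with library weights (0.0144), within a range of 0.0144 to 0.159 over 21 alternatives. The sestrin genes were not called. For sesn1 the difference was -0.43 ± 0.27 (95% interval -1.03 to 0.17; limma adjusted p = 0.289; exact two-sided permutation p = 0.17). For sesn2 it was 0.06 ± 0.16 (-0.29 to 0.41; limma adjusted p = 0.836; exact two-sided permutation p = 0.77), and its sign turned under 4 alternatives.

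By feeding state, given as a description, Pachón minus surface was 2.12 ± 0.71 for ddit4 in starved fish and 3.19 ± 0.71 in refed fish. For ypel3 it was 0.98 ± 0.39 and 1.87 ± 0.39, and for tp53inp1 0.86 ± 0.72 and 1.92 ± 0.72. The fit gives each gene a single spread shared by all groups, so these SEs hide differences in spread between groups. In starved surface fish and Pachón cavefish the SD of tp53inp1 on the log2(TPM + 1) scale was 0.30 and 0.03. In refed fish it was 1.58 and 1.27. By these SDs the shared SE is too wide for the starved and too narrow for the refed difference of tp53inp1. The refed value of tp53inp1 was 1.09 without replicate 3 and 2.66 without replicate 1 of the refed surface fish. In order of the mean TPM, ddit4 went from starved Pachón cavefish (725 ± 109) through starved surface fish (225 ± 205) and refed Pachón cavefish (58.2 ± 38.1) to refed surface fish (5.17 ± 3.74; SD, n = 3). The libraries of starved surface fish and refed Pachón cavefish overlapped in this order, from 61.36 TPM in the former to 96.95 TPM in the latter. The order of the means was the same for ypel3 and tp53inp1. Of the related rows YPEL5 was higher in Pachón cavefish by 0.96 ± 0.14 (limma adjusted p = 0.000664), while ypel5 had an estimate of 0.61 ± 0.23 (limma adjusted p = 0.0843). The summed TPM of 7 adipocyte marker rows was lower in Pachón cavefish, 219 to 418 against 526 to 1650 in starved and 143 to 358 against 391 to 919 in refed fish. Over the libraries fabp11a ran from 54.46 to 1410.4 TPM and lpl from 65.41 to 566.47 TPM. No other row of this sum exceeded 38.29 TPM. The part of the sum in these population differences was not tested. With both doubtful libraries left out ddit4 and ypel3 were still called.

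**Figure D4:**
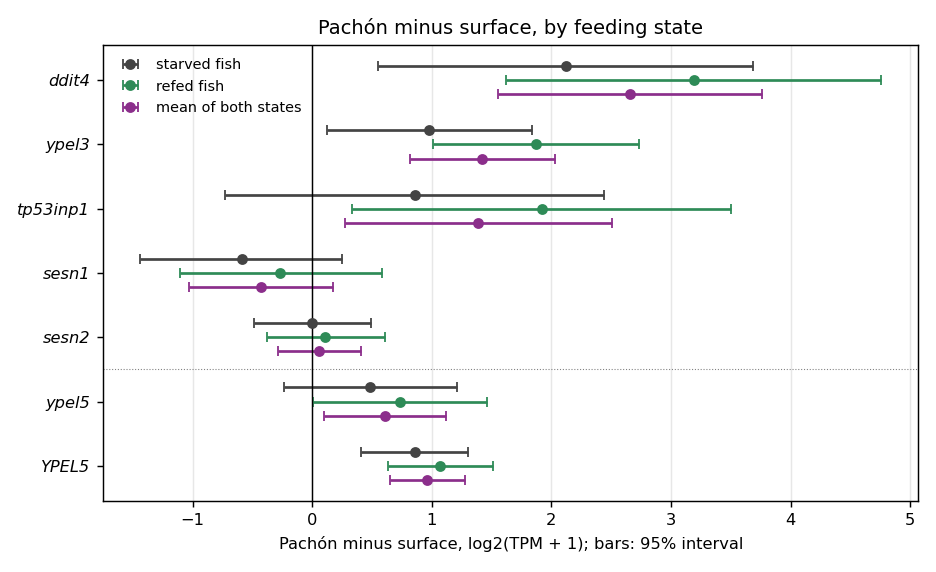
Pachón minus surface difference on the log2(TPM + 1) scale in starved fish, in refed fish and as the mean of both states, with 95% intervals of the limma fit. The mean is 2.66 for ddit4, 1.42 for ypel3 and 1.39 for tp53inp1, while the intervals of sesn1 and sesn2 include 0. Each gene has a single spread for all groups, so its starved and refed intervals are equally wide whatever the spread of those libraries.

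Other genes of the pathways were counted from lists given by symbol. The lists here and below were chosen with earlier results of these data known. Their counts are thus a description and no independent support. Of 13 tested mTORC1 inhibitors other than the 5 genes, 6 fell and 0 rose after the meal in surface fish, and 5 fell and 0 rose in Pachón cavefish. Over all tested genes limma called 9.68% lower and 9.03% higher in surface fish and 7.64% lower and 22.9% higher in Pachón cavefish. The list median was -0.43 in both populations, against -0.04 and 0.17 over all tested genes. Called lower in both were nprl2 and nprl3, subunits of GATOR1, which represses mTORC1, and tsc2 of the TSC complex. The largest of these falls was that of nprl2, from 5.95 ± 1.68 to 0.643 ± 0.197 TPM in surface fish (-2.06 ± 0.27, limma adjusted p = 0.00112) and from 5.98 ± 1.71 to 1.26 ± 0.779 TPM in Pachón cavefish (-1.65 ± 0.27, limma adjusted p = 0.00106). The tsc2 gene fell by 0.85 ± 0.18 and 0.95 ± 0.18, and nprl3 by 0.99 ± 0.21 and 0.71 ± 0.21, in surface fish and Pachón cavefish (limma adjusted p of 0.0225 or lower). In surface fish akt1s1, which encodes an mTORC1-binding inhibitor, fell by 0.95 ± 0.21 (limma adjusted p = 0.0108), and tsc1a, the partner of tsc2, fell by 0.69 ± 0.22 (limma adjusted p = 0.0448). In Pachón cavefish itfg2, of the KICSTOR complex that places GATOR1, fell by 0.96 ± 0.20 (limma adjusted p = 0.00435). Not called in the other population, itfg2 was at -0.27 in surface fish, and akt1s1 and tsc1a at -0.42 and -0.58 in Pachón cavefish. Without replicate 1 of the refed Pachón cavefish, or without either replicate 1 or replicate 3 of the starved ones, 3 inhibitors were called lower there, as without both doubtful libraries, and 1 with a 5 TPM filter, which keeps fewer genes. In the other direction, 2 inhibitors were called higher in surface fish without replicate 1 of the starved group, and 1 in Pachón cavefish without replicate 2 of the starved or replicate 3 of the refed group. In surface fish 2 were called lower with that filter and 3 in a fit of the 6 surface libraries alone, and the call of tsc1a held in 5 of 22 alternatives. Named after its value was seen, castor2 was also called in surface fish (-0.98 ± 0.26, limma adjusted p = 0.023), but not in Pachón cavefish (-0.43).

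The list of mTORC1 subunits and activators also holds the mTORC1 targets rps6kb1b, eif4ebp1, eif4ebp2, eif4ebp3 and eif4ebp3l. Its counts and medians, here and below, are thus not those of subunits and activators alone. Of its 22 tested genes, 5 fell and 0 rose in surface fish, and 4 fell and 3 rose in Pachón cavefish, with medians of -0.31 and -0.12. By the same calls 9.68% of all tested genes fell and 9.03% rose in surface fish, with a median of -0.04. In Pachón cavefish 7.64% fell and 22.9% rose, with a median of 0.17. The list genes that fell in both were wdr59 and wdr24, of GATOR2, which opposes GATOR1, and eif4ebp3. The last encodes a translation repressor that mTORC1 inactivates and is thus no activator. The wdr59 gene fell by 1.90 ± 0.24 in surface fish (limma adjusted p = 0.000937) and by 1.14 ± 0.24 in Pachón cavefish (limma adjusted p = 0.00409). The wdr24 gene fell by 1.17 ± 0.18 and 0.69 ± 0.18, and eif4ebp3 by 3.42 ± 0.81 and 2.61 ± 0.81 (limma adjusted p of 0.0308 or lower). The folliculin gene flcn fell in surface fish by 0.83 ± 0.16 (limma adjusted p = 0.00539). In Pachón cavefish sec13 rose by 1.71 ± 0.42 and seh1l by 0.80 ± 0.19, both GATOR2 subunits that also serve the nuclear pore (limma adjusted p of 0.01 or lower). Not called in the other population, flcn was at -0.35 in Pachón cavefish, and sec13 and seh1l at 0.67 and 0.29 in surface fish. The kinase gene mtor had differences of -0.24 and 0.42 and its partner rptor -0.66 and 0.20 in surface fish and Pachón cavefish, none called (limma adjusted p of 0.0632 or higher). The count of 4 was 1 without replicate 1 or replicate 3 of the refed or replicate 3 of the starved Pachón cavefish, and 2 without replicate 2 of the refed ones or without both doubtful libraries, but 9 after quantile normalization, and the count of 3 was 5 with library weights. In surface fish the count of 5 was 3 without replicate 3 of the refed group and 8 after quantile normalization, and without replicate 2 of the starved group 2 genes were called higher. The remaining calls are named after their values were seen. One was rhebl1, a relative of Rheb, in surface fish (-0.97 ± 0.23), not called in Pachón cavefish (-0.63). The others were rps6kb1b and eif4ebp2, targets of mTORC1, in Pachón cavefish (0.76 ± 0.22 and -0.80 ± 0.27). Their differences in surface fish, 0.58 and -0.78, were similar but not called.

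Of 12 tested AMPK genes, the energy-sensing kinase that opposes mTORC1, 1 rose and 1 fell in surface fish and 4 rose and 2 fell in Pachón cavefish. The background over all tested genes was 9.03% higher and 9.68% lower in surface fish, and 22.9% higher and 7.64% lower in Pachón cavefish. The list medians were -0.36 and 0.51. The upstream kinase gene stk11 (LKB1) rose in both, by 0.64 ± 0.17 (limma adjusted p = 0.0221) and 1.23 ± 0.17 (limma adjusted p = 0.000372). Its partner strada fell in surface fish by 0.72 ± 0.19 (limma adjusted p = 0.0208) and was not called in Pachón cavefish (0.03). In Pachón cavefish STRADB rose by 1.04 ± 0.18, cab39l1 by 1.13 ± 0.32 and the AMPK subunit gene prkag3a by 1.04 ± 0.28 (limma adjusted p of 0.0196 or lower). None of these was called in surface fish (0.32, 0.69 and 0.72). The share of called genes that were higher in Pachón refeeding was 75% but 56.1% after median-of-ratios scaling and 53.3% after quantile normalization. Named after their values were seen, prkaa1 and prkag3b, AMPK subunit genes, fell in Pachón cavefish by 1.39 ± 0.43 and 1.07 ± 0.31 (limma adjusted p of 0.0301 or lower). Neither was called in surface fish (-0.79 and -0.82). The counts of this list are small and moved with single libraries. In Pachón cavefish 2 rose without replicate 3 of the refed group, and leaving out any of the 6 Pachón libraries gave 0 or 1 that fell, with 0 without replicate 3 of the starved or replicate 1 of the refed group. In surface fish 0 rose without replicate 1 or 3 of the starved or replicate 3 of the refed group and 2 without replicate 2 of the starved group. There 0 fell without replicate 3 of the refed group, and 2 fell without replicate 2 of either surface group or replicate 1 of the refed Pachón cavefish. Without both doubtful libraries 2 rose and 2 fell in surface fish, and 1 fell in Pachón cavefish.

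FoxO proteins are transcription factors that are active when insulin is low. Of 28 tested FoxO factors and FoxO target genes, 10 fell and 1 rose in surface fish and 11 fell and 1 rose in Pachón cavefish, 8 of them falling in both, with medians of -1.08 and -0.81. Among all tested genes 9.68% fell and 9.03% rose in surface fish, and 7.64% fell and 22.9% rose in Pachón cavefish, by the same calls. The pyruvate dehydrogenase kinase gene pdk4 fell from 44 ± 15.3 to 3.01 ± 2.04 TPM in surface fish (-3.57 ± 0.54, limma adjusted p = 0.00182). In Pachón cavefish pdk4 fell from 47.7 ± 0.301 to 8.25 ± 5.99 TPM (-2.66 ± 0.54, limma adjusted p = 0.00333). The mitophagy receptor gene bnip3lb fell by 1.73 ± 0.27 and 1.63 ± 0.27, and the insulin receptor adaptor gene irs2b by 3.18 ± 0.66 and 2.39 ± 0.66, in surface fish and Pachón cavefish (limma adjusted p of 0.0185 or lower). In surface fish txnipa, a restraint on glucose uptake, fell by 2.90 ± 0.51 (limma adjusted p = 0.0037), but it was not called in Pachón cavefish (-1.01). In Pachón cavefish the autophagy gene gabarapl2 fell by 1.64 ± 0.32 (limma adjusted p = 0.00276) and the factor gene foxo1a by 4.33 ± 0.95 (limma adjusted p = 0.00541). Neither was called in surface fish (-0.76 and -1.49). In the other direction, foxo3a rose by 2.29 ± 0.42 and 2.09 ± 0.42 (limma adjusted p of 0.00461 or lower), and foxo3b was not called (-0.61 and -0.30). Without both doubtful libraries 10 fell in surface fish and 5 in Pachón cavefish, where leaving out replicate 2 or replicate 3 of the starved group gave 6 and 5 and replicate 1 of the refed group 5. The highest count of falls there over 22 alternatives was 16. Without replicate 2 of the starved surface fish 2 rose in surface fish.

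Of 23 tested p53 genes 3 fell and 0 rose in surface fish and 4 fell and 0 rose in Pachón cavefish, with medians of -0.34 and -0.09. The shares called over all tested genes were 9.68% lower and 9.03% higher in surface fish, and 7.64% lower and 22.9% higher in Pachón cavefish. The metabolic regulator gene tigara fell in both, by 0.92 ± 0.20 (limma adjusted p = 0.011) and 0.84 ± 0.20 (limma adjusted p = 0.00859). In surface fish the growth arrest genes btg2 and gadd45aa fell by 1.67 ± 0.39 and 1.54 ± 0.29 (limma adjusted p of 0.0148 or lower). Neither was called in Pachón cavefish (-0.92 and -0.37). In Pachón cavefish the DNA repair gene ddb2 fell by 1.47 ± 0.36, the kinase gene plk2b by 0.79 ± 0.26 and bbc3 (PUMA), which promotes cell death, by 1.56 ± 0.41 (limma adjusted p of 0.0423 or lower). None of these was called in surface fish (-0.79, -0.48 and -1.25). The p53 antagonist gene mdm2 and the cell cycle inhibitor gene cdkn1a were not called in either population, with differences between -0.15 and 0.38 (limma adjusted p of 0.227 or higher). In surface fish 5 fell without replicate 1 of either surface group. In Pachón cavefish 2 fell without replicate 1 of the refed group or without both doubtful libraries, and 1 rose without replicate 2 of that group, replicate 2 of the starved or replicate 3 of the refed surface fish. Over 22 alternatives 2 to 5 fell in surface fish and 2 to 6 in Pachón cavefish.

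Of 25 tested genes of ATF4 and the integrated stress response, which also induces ddit4 and sesn2 in mammals, 5 rose and 3 fell in surface fish and 4 rose and 3 fell in Pachón cavefish. The background over all tested genes was 9.03% higher and 9.68% lower in surface fish, and 22.9% higher and 7.64% lower in Pachón cavefish. The list medians were 0.16 and 0.33. The call in both that was lower was nupr1a, a stress-induced chromatin regulator gene, which fell by 1.21 ± 0.20 and 0.97 ± 0.20 (limma adjusted p of 0.00429 or lower). The mitochondrial folate enzyme gene mthfd2 rose by 0.99 ± 0.26 and 1.06 ± 0.26, and the serine synthesis gene psph by 1.27 ± 0.40 and 1.76 ± 0.40 (limma adjusted p of 0.0464 or lower), where the surface call of psph held in 6 of 22 alternatives. The asparagine synthetase gene had rows named asns (1 of many), uncertain since near-identical copies may share their reads. The row ENSAMXG00000029843 rose by 2.54 ± 0.53 in surface fish (limma adjusted p = 0.00842) and had a difference of 1.44 ± 0.53 in Pachón cavefish (limma adjusted p = 0.0584). The row ENSAMXG00000039240, named after its values were seen, rose by 1.60 ± 0.48 (limma adjusted p = 0.0401) and 1.62 ± 0.48 (limma adjusted p = 0.0254). In surface fish the transporter gene slc3a2a rose by 1.27 ± 0.35 (limma adjusted p = 0.0272), but it was not called in Pachón cavefish (0.84). Also called in surface fish, but lower, were nupr1b (-2.57) and slc3a2b (-0.80). Neither was called in Pachón cavefish (-0.44 and -0.38). In Pachón cavefish the ER stress kinase gene eif2ak3 rose by 1.36 ± 0.32 (limma adjusted p = 0.00827). There the factor genes cebpb and ddit3 fell by 1.56 ± 0.36 and 1.45 ± 0.40 (limma adjusted p of 0.0165 or lower). In surface fish eif2ak3, cebpb and ddit3 were not called (0.89, -0.61 and -1.02). The factor gene atf4a and its target trib3 were not called in either population, with differences between 0.47 and 0.71 (limma adjusted p of 0.057 or higher). The surface count of 5 was 0 in a fit of the 6 surface libraries alone. It was 1 without replicate 1 of the starved or replicate 3 of the refed surface fish, 2 without replicate 3 of the starved or replicate 1 of the refed, and 3 without replicate 2 of the refed surface fish, any starved Pachón library or replicate 1 of the refed Pachón cavefish. The surface count of 3 that fell was 1 without replicate 3 of the starved or replicate 2 of the refed surface fish. In Pachón cavefish 3 to 7 rose and 2 or 3 fell over 22 alternatives.

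Of 16 tested genes of the glucocorticoid receptor list, a hormone pathway that induces ddit4 in mammals, 1 fell in surface fish, nfkbiab by 0.87 ± 0.25 (limma adjusted p = 0.032). In Pachón cavefish the receptor gene nr3c1 fell by 0.79 ± 0.24 (limma adjusted p = 0.0257) and hsd11b2, which inactivates cortisol, rose by 1.42 ± 0.36 (limma adjusted p = 0.0108). Not called in the other population, nfkbiab was at -0.25 in Pachón cavefish, and nr3c1 and hsd11b2 at -0.44 and -0.49 in surface fish. A second row named NR3C1 was not called (0.10 and -0.05). These counts did not exceed the shares over all tested genes. Those were 9.68% lower in surface fish, and 7.64% lower and 22.9% higher in Pachón cavefish. The list medians were -0.45 and -0.41. The largest difference of the list in each population was not called, and its gene is named after its value was seen. In surface fish this was fkbp5 (-4.07), at -1.78 and not called in Pachón cavefish. In Pachón cavefish it was zbtb16b (-1.85), at -0.31 and not called in surface fish. The count of falls was 0 in surface fish without replicate 1 or 2 of the starved or replicate 2 of the refed group, 3 without replicate 1 of the refed group and 2 without replicate 1 or 2 of the refed Pachón cavefish. In Pachón cavefish it was 0 without replicate 2 or 3 of the starved group, without replicate 1 of the refed group or without both doubtful libraries, and 4 and 2 without replicates 1 and 2 of the refed surface fish. Without replicate 1 of the starved surface fish 1 gene rose in surface fish.

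In the difference of the responses limma called 0 genes of any of these lists, while 16.5% of all tested genes had an unadjusted p under 0.05. Below that p were 4 of 12 AMPK genes, 2 of 13 mTORC1 inhibitors, 3 of 22 mTORC1 subunits and activators and 3 of 23 p53 genes. So were 2 of 16 glucocorticoid receptor genes, 1 of 28 FoxO genes and 0 of 25 ATF4 genes.

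**Figure D5:**
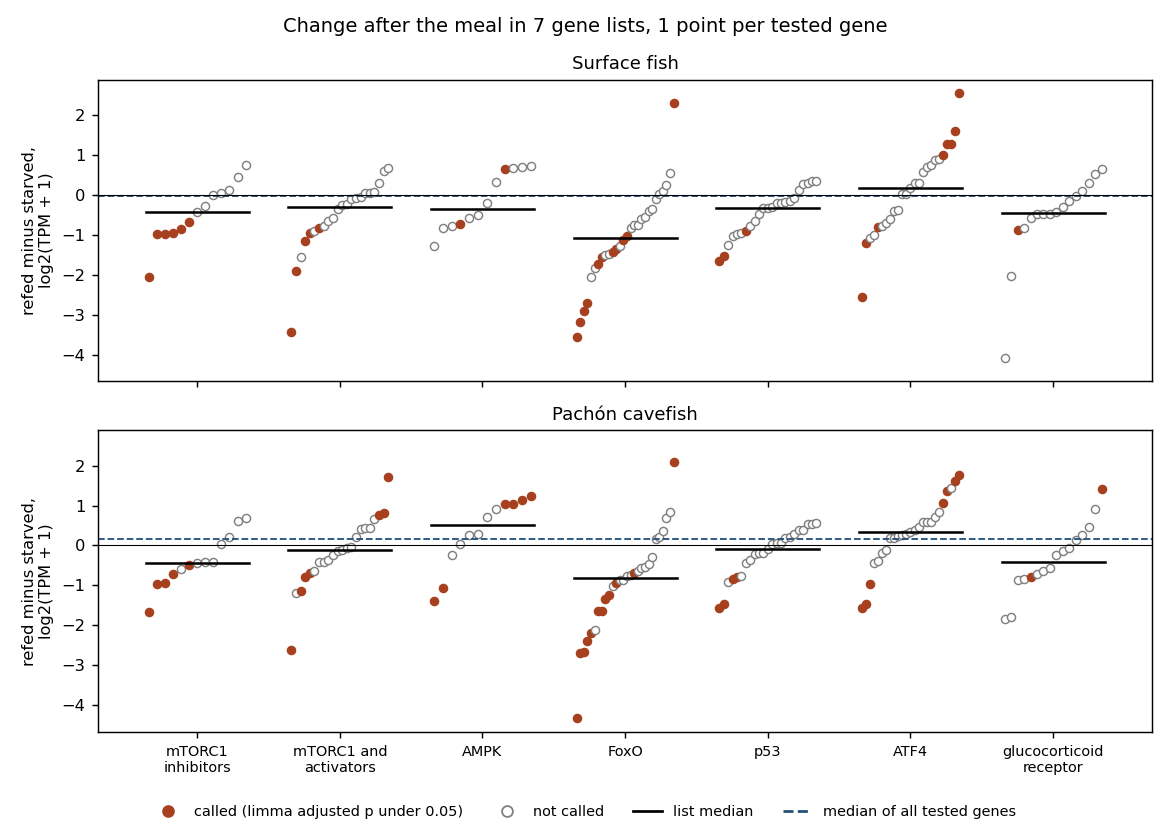
Refed minus starved difference on the log2(TPM + 1) scale of each tested gene in 7 lists, surface fish above and Pachón cavefish below, with called genes filled, list medians in black and the median of all tested genes dashed. The FoxO list has the lowest medians, -1.08 in surface fish and -0.81 in Pachón cavefish. The list of mTORC1 and activators also holds targets of mTORC1.

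Between populations, as the mean of both feeding states, limma called 13.1% of all tested genes higher and 9.86% lower in Pachón cavefish. Of the FoxO genes 6 of 28 were higher and 0 lower, and of the glucocorticoid receptor genes 5 of 16 were higher and 1 lower. Of the p53 genes 3 of 23 were higher and 2 lower, and of the ATF4 genes 4 of 25 were higher and 3 lower. Over 21 alternatives 4 to 9 FoxO, 4 to 7 glucocorticoid receptor and 2 to 4 ATF4 genes were higher, and 3 or 4 ATF4 genes were lower. In 2 alternatives 1 FoxO gene was lower. Without replicate 2 of the starved surface fish 5 p53 genes were higher, and 1 was lower when any surface library but replicate 3 of the starved was left out alone, as with replicate 1 or 3 of the starved or replicate 2 or 3 of the refed Pachón cavefish. Of the mTORC1 subunits and activators 1 of 22 was higher and 0 lower, of the AMPK genes 0 of 12 were higher and 1 lower, and of the mTORC1 inhibitors 1 of 13 was higher and 0 lower. Leaving out single libraries moved the counts of these last 3 lists by at most 1. The inhibitor was depdc5 of GATOR1 (1.01 ± 0.25, limma adjusted p = 0.0126), named after its value was seen. The 3 higher p53 genes were bbc3 by 2.26 ± 0.29 (limma adjusted p = 0.000239), btg2 by 1.09 ± 0.28 (limma adjusted p = 0.0162) and cdkn1a by 0.67 ± 0.16 (limma adjusted p = 0.0101). The 2 lower p53 genes are not named here, so no direction of the list is read from these values. Among the FoxO genes txnipa was higher by 1.60 ± 0.36 (limma adjusted p = 0.0085).

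The genes with the most similar profiles over the 12 libraries were found by the root mean square difference of centred log2(TPM + 1) values among 6524 candidates, as a description. For ddit4 they were the glutamine synthetase gene glula (0.93), ypel3 (1.13) and the cytokine signal inhibitor gene socs2 (1.18). For ypel3 they were ulk1a (0.49), the kinase that starts autophagy and that mTORC1 inhibits, pdk4 (0.52) and ypel5 (0.59). For tp53inp1 they were irs2a (0.60), ypel3 (0.68) and the repressor gene hbp1 (0.71). For sesn1 the closest were clybl (0.24), rpe (0.26) and prpsap1 (0.27), and for sesn2 armc8 (0.12), rybpa (0.12) and m6pr (0.14). Among the 5 genes the closest pair by this measure was sesn1 and sesn2 (0.66), followed by ypel3 and tp53inp1 (0.68), and ddit4 and sesn2 were farthest apart (3). The profiles were not scaled, so genes that vary little come out close whatever their direction. After the meal sesn1 differed by -0.33 and -0.01 and sesn2 by 0.68 and 0.80 in surface fish and Pachón cavefish. No shared response is read from their closeness. Closeness to ddit4, ypel3 or tp53inp1 follows in part from the large falls that chose these genes.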

How the data were processed

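Stranded libraries from polyA RNA were sequenced as single reads, per the labels' protocols. The authors deposited TPM per gene and library. The submitters' processing notes name RSEM, Bowtie2, STAR 2.6.1c and bcl2fastq 2.18. Their roles, the genome build and the annotation are not given in the sources read here, so no coordinates or sequences are printed. No batch or date is given in the labels. The 6 ChIP libraries were not analysed here. TPM depend on the most abundant genes, and depth is unknown.

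From the deposited TPM, log2(TPM + 1) of 13157 genes (a minimum of 1 TPM in 3 or more libraries) was fitted with limma 3.58.1 in R 4.3.3 (4 group means, mean-variance trend, 3.303 prior and 8 residual degrees of freedom). The pseudocount understates the change of low genes. Calls are at Benjamini-Hochberg adjusted p under 0.05 over all tested genes. Intervals are 95%. The fit was tested on simulated data. The genes and lists were chosen with earlier results of these data known. Named list genes were up to 4 called genes with the smallest p per list and population, plus 15 tested genes fixed by symbol. Some of these genes are not reported here. Alternatives changed the pseudocount, filter, scaling, library weights, replicate block and libraries used.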

Additional observations from a re-analysis of the deposited data

How the results depend on the processing

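The calls of ddit4 and ypel3 between populations stood in all 21 alternatives, and the refed minus starved differences of ddit4, ypel3 and tp53inp1 kept their sign in all 22. The sesn2 population difference, 0.06, turned to -0.02 with quantile normalization and -0.03 without both doubtful libraries, and spanned -0.06 to 0.17 when single libraries were left out; sesn2 gave no value under the 5 TPM filter. The number of genes with a called difference of responses, 9, was 1 with a pseudocount of 0.1, 21 with no filter, 0 with the 5 TPM filter, 18 with quantile normalization, 35 with library weights, 0 with the replicate block, 0 without both doubtful libraries and 0 to 55 when single libraries were left out. The 5 TPM filter, which tests fewer genes, called 969 of starved, 1017 of refed and 1692 of mean population differences, against 1719, 1768 and 3023. Surface refeeding called 2461 genes, but 977 with its 6 libraries alone, and 1406 to 2387 when single libraries were left out. The same ranges were 881 to 1794 for starved and 1077 to 1983 for refed population differences. The cause of these moves was not tested. Titles give all groups replicate numbers 1 to 3, but 18 same-numbered pairs had correlations of -0.245 to 0.123, with 1 over 0.1. These are a different measure from the library correlations given above, which were 0.787 to 0.919 between groups. The numbers were thus not taken as pairs. The replicate block called 1911 and 3535 genes in surface and Pachón refeeding, and 2 of the 5 genes in the mean population difference. The share of calls that were higher in refed Pachón cavefish was 73.1%, but 54.4% after median-of-ratios scaling and 51.5% after quantile normalization. Of the calls of named list genes after refeeding, 16 of 27 in surface fish and 22 of 33 in Pachón cavefish stood in all alternatives. Counts of calls in a list moved by over 1.5 times in 118 instances for higher and 168 for lower calls, against 515 and 414 that did not. The median Pachón refeeding change of all tested genes, 0.17, was -0.02 after median-of-ratios scaling. Depth is unknown, so low values such as those of sesn2 have no counting error.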
